A study of Mus musculus with 4 samples.

Results

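The OTU deubiquitinases are a family of cysteine proteases that remove ubiquitin from other proteins, and 10 of their genes were followed here by symbol (Otub1, Otub2, Otud1, Otud3, Otud4, Otud5, Otud6b, Otud7a, Otud7b and Otulin). All 10 members were found among 54446 mouse Ensembl genes, and all 10 were abundant enough to be tested. RNA was sequenced from tongue-derived epithelial cells of C57BL/6 mice grown in RPMI-1640 with fetal bovine serum. Of the 4 libraries, 2 are labelled as a systemic knockout of Otub2 (Otub2 KO 3 and Otub2 KO 4) and 2 as wild type (Control 1 and Control 2). No age, allele or deleted exon is given. Whether a group's libraries stem from different animals or cultures is not stated either, and the p-values then cover only sample-to-sample spread, possibly technical. In the deposited table the headers of the knockout libraries read OE, a common short form of overexpression, whereas their sample titles say KO. The titles were followed, and if the headers were right each fold change below would concern a gain of Otub2.

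Ubiquitin is joined to proteins singly or as chains, and the way its units are linked decides whether the protein is degraded, moved or made part of a signalling complex. OTU enzymes often cleave chains of particular linkages, and they act in inflammatory signalling, DNA repair and protein turnover. Otub2 is known to remove ubiquitin from the Hippo pathway co-activators YAP and TAZ and from TRAF proteins.

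Total counts were 23017183 and 19085713 in Otub2 KO 3 and 4 and 12541345 and 11882900 in Control 1 and 2. Levels are given as CPM, the count divided by a library size scaled by TMM and expressed per 1000000 counts, which corrects for a few genes that take many reads. Of 15 keratinocyte markers, 15 were detected in every library, with summed levels of 43117 and 56964 CPM in Otub2 KO 3 and 4, against 79821 and 74624 CPM in the controls, and in both knockout libraries 9 of the 15 lay below both controls and 2 above (Col17a1 and Itgb4). Otub2 KO 3 stood apart. Its 12 salivary gland markers summed to 423816 CPM, against 28.8 CPM in Otub2 KO 4 and 10.5 and 8.20 CPM in Control 1 and 2, although 3 of the 12 (Dcpp1, Dcpp2 and Dcpp3) were at 0 in it. Most of that sum was Mucl2 (381468 CPM), with Pip (20911 CPM) and Prol1 (20582 CPM) next. In both knockout libraries 3 of the 12 lay above both controls (Mucl2, Bpifa2 and Pip) and 1 below. Mucl2 had 16.8 CPM in Otub2 KO 4, against 1.47 and 1.17 CPM in Control 1 and 2. Muc19 had 3.70 CPM in Otub2 KO 3, against 3.57 and 2.34 CPM in Control 1 and 2. The 12 cardiomyocyte markers summed to 20743 CPM in Otub2 KO 3, against 61.0 CPM in Otub2 KO 4 and 77.4 and 97.6 CPM in the controls. The 10 fibroblast markers summed to 752 and 515 CPM in Otub2 KO 3 and 4, against 173 and 218 CPM in the controls, and 7 of them lay above both controls. The 8 smooth muscle and pericyte markers summed to 1042 and 113 CPM, against 67.7 and 63.9 CPM, with 4 above both controls. Des alone had 645 CPM in Otub2 KO 3. The 7 endothelial markers summed to 279 and 69.6 CPM, against 72.1 and 62.3 CPM, with 3 above. For 8 skeletal muscle markers the sums were 427 and 66.5 CPM, against 23.2 and 23.8 CPM, with 1 above and 2 below. For 8 leukocyte markers they were 180 and 50.5 CPM, against 150 and 89.4 CPM, with 0 above and 3 below. Over all genes tested on this scale, 26.9% lay above both controls in both knockout libraries and 33.1% below. Among those with a mean of at least 5 CPM the shares were 42.7% and 12%. The part of the cell type markers in the results was not tested. In bulk RNA, fewer cells of a type and less RNA per cell cannot be told apart.

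The sequences at the starts of Otub2 and Otud7a are shown because Otub2 is the targeted gene, with separate annotated starts that a gene-level count cannot tell apart, and Otud7a is the member farthest from the controls. Each window, from RefSeq on GRCm38.p6, runs from 250 bases before a start to 50 bases after it, 5′ to 3′ on the plus strand. Capitals mark a GC box (GGGCGG) or a CCAAT box (CCAAT), searched on both strands; a TATA box (TATAAA) was searched likewise and is in none of the 3. Of 32851 such mouse windows, 35.7% held the GC box letters, 37.4% the CCAAT letters and 13.6% the TATA letters. RefSeq had windows for 8 of the 10 members.
Otub2 upstream start, chr12:103376644-103376943: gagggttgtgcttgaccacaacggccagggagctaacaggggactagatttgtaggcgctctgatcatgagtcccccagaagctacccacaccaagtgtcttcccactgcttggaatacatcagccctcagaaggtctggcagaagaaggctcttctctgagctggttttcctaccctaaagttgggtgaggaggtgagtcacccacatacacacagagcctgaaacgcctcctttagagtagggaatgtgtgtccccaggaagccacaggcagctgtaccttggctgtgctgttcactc
Otub2 main start, chr12:103388432-103388731: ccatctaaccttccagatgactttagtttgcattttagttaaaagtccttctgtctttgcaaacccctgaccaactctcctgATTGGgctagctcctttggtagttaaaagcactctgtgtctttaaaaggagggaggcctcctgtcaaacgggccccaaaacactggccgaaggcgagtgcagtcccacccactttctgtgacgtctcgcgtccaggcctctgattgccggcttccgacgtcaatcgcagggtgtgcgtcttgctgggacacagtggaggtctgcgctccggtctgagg
Otud7a, chr7:63444522-63444821: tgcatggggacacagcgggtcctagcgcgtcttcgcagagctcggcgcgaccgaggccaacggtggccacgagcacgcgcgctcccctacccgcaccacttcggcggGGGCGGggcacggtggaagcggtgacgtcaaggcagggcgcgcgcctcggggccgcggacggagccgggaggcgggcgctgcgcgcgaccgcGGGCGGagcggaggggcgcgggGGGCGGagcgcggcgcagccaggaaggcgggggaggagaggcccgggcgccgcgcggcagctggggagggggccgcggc
The Otub2 windows held 3 CG dinucleotides at the upstream start and 13 at the main start, where 1 CCAAT match was found, and the Otud7a window held 51 CG dinucleotides and 3 GC box matches. The median over all windows was 7 CG dinucleotides. The upstream start lies 11.8 kb before the GENCODE gene. The deposited FPKM values imply an Otub2 length of 3695 bases, equal to the merged GENCODE exons, and such an equality within 1 base held for all 10 members. An exon lying only upstream would therefore not be part of the Otub2 count.

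Otub2 transcripts were present in all 4 libraries, at lower levels in both labelled Otub2 KO. Otub2 (ENSMUSG00000021203, chr12:103388682-103406350 on GRCm38, plus strand, 7 merged exons) had 272 and 495 counts in Otub2 KO 3 and 4 and 393 and 367 counts in Control 1 and 2. These are 19.0 and 24.0 CPM in Otub2 KO 3 and 4, against 27.5 and 26.9 CPM in the controls. Both knockout libraries lay below both controls, and Otub2 KO 3 was the lower. The 95% Poisson intervals, which cover counting error only, were 16.8 to 21.4 CPM in Otub2 KO 3 and 21.9 to 26.2 CPM in Otub2 KO 4, against 24.8 to 30.4 CPM in Control 1 and 24.2 to 29.8 CPM in Control 2. The interval of Otub2 KO 4 thus overlapped those of both controls, and that of Otub2 KO 3 did not. The log2 fold change was -0.34 (SE 0.302, 95% interval -1.11 to 0.43, n = 2 libraries per group) and did not pass the quasi-likelihood test of edgeR (adjusted p = 0.485). With 0 genes called among 21916 tested (0%), this test called nothing in either direction; at an unadjusted p under 0.05 there were 2064 genes higher (9.42%) and 3325 lower (15.2%). On the TMM scale both knockout libraries lay below both controls for 33.1% of all genes tested. Among genes with a mean of at least 5 CPM the share was 12%. A lower log2 fold change than that of Otub2 was found for 36.0% of all genes tested and 11.9% of those with at least 5 CPM. A gene-level count includes reads from exons that a deletion leaves in place, so the Otub2 values do not check the deletion.

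The genes whose levels ran most like those of Otub2 over the 4 libraries were Bbs5, a subunit of the ciliary BBSome, Ctnnd1, the adherens junction protein p120 catenin, and Skiv2l, an RNA helicase of the cytoplasmic exosome pathway. Likeness was the Euclidean distance between log2(CPM + 1) values centred on their mean over the 4 libraries, which was 0.033 for Bbs5, 0.0436 for Ctnnd1 and 0.0478 for Skiv2l. Among 11122 protein-coding genes compared, 20 lay within 0.1 of Otub2 and 508 within 0.3. Within the family the nearest was Otub1 at 0.469, and 1556 genes were nearer than that.

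**Figure D1:**
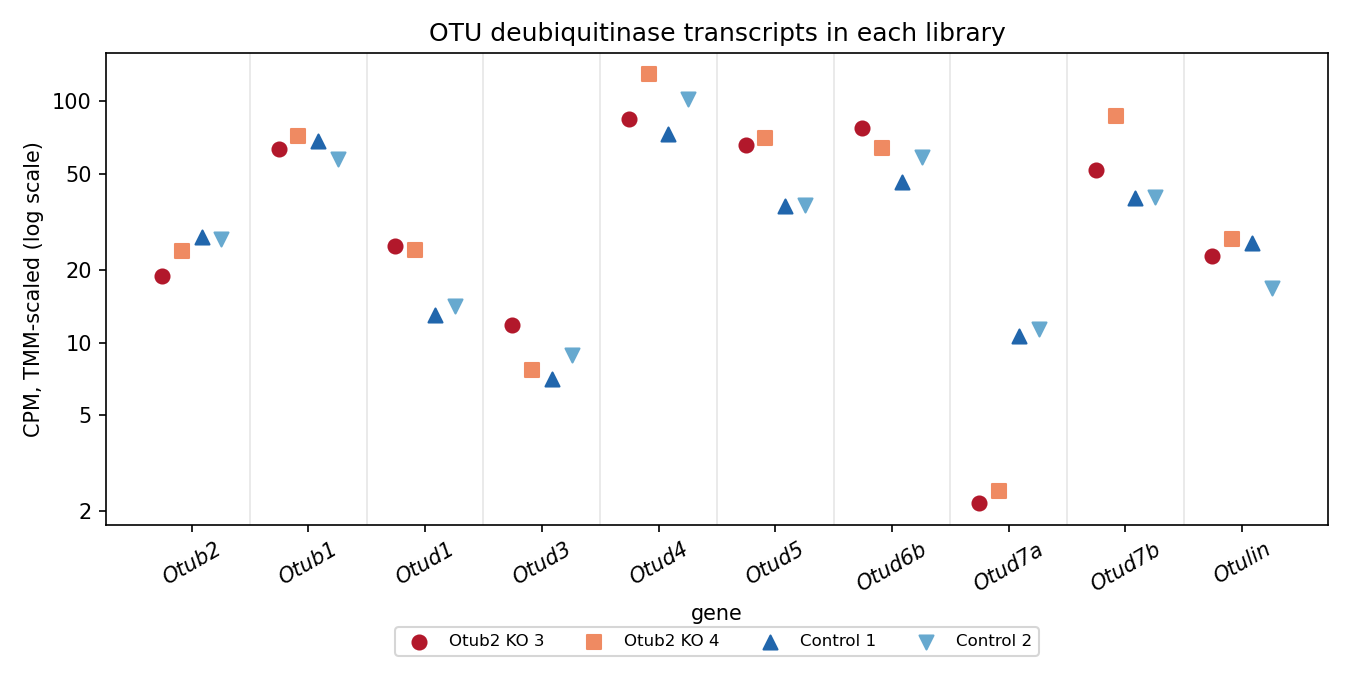
TMM-scaled level of each gene (CPM, log axis) in Otub2 KO 3 (circles), Otub2 KO 4 (squares), Control 1 (upward triangles) and Control 2 (downward triangles), 1 point per library. Otud7a is at 2.16 and 2.42 CPM in Otub2 KO 3 and 4, far below its 10.7 and 11.4 CPM in the controls. The points of each other gene lie closer together than those of Otud7a.

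None of the 10 members passed the edgeR test. On the TMM scale 4 of 10 had both knockout libraries above both controls (Otud1, Otud5, Otud6b and Otud7b), 2 had both below (Otub2 and Otud7a) and 4 had overlapping groups. Among 11788 genes with a mean of at least 5 CPM, where all 10 belong, 42.7% lay above and 12% below, so the members' count above is near that of other genes. The median log2 fold change was 0.29 over the members and 0.41 over those 11788 genes. RLE size factors moved the median of these genes by 0.05 relative to TMM and kept 8 members higher and 2 lower, as with TMM. DESeq2 moved it up by 0.25, keeping features without an Ensembl ID by 0.26 and leaving out the filter on low counts by 0.13. Other scalings of the libraries moved it by -0.47 (upper quartile), -0.43 (library size only) and -0.48 (each library scaled to its median), each relative to TMM. Positions above or below both controls were taken under 4 scalings, TMM and the last 3 of these, and not with RLE. With library size only, 0 members lay above both controls and 2 below, against 13.1% and 21% of these genes. Median scaling put 2 above (Otud1 and Otud5) and 3 below (Otub1, Otub2 and Otud7a), against 15.7% and 31.4%, and upper-quartile scaling the same members, against 16.1% and 30.8%. Differences are therefore also given relative to the median gene of at least 5 CPM, below which both Otub2 (-0.75) and Otud7a (-2.67) lay. Relative to that median, Otud5 was at 0.48, Otud1 at 0.45 and Otud7b at 0.39, and the other 5 members were between -0.31 and 0.02.

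**Figure D2:**
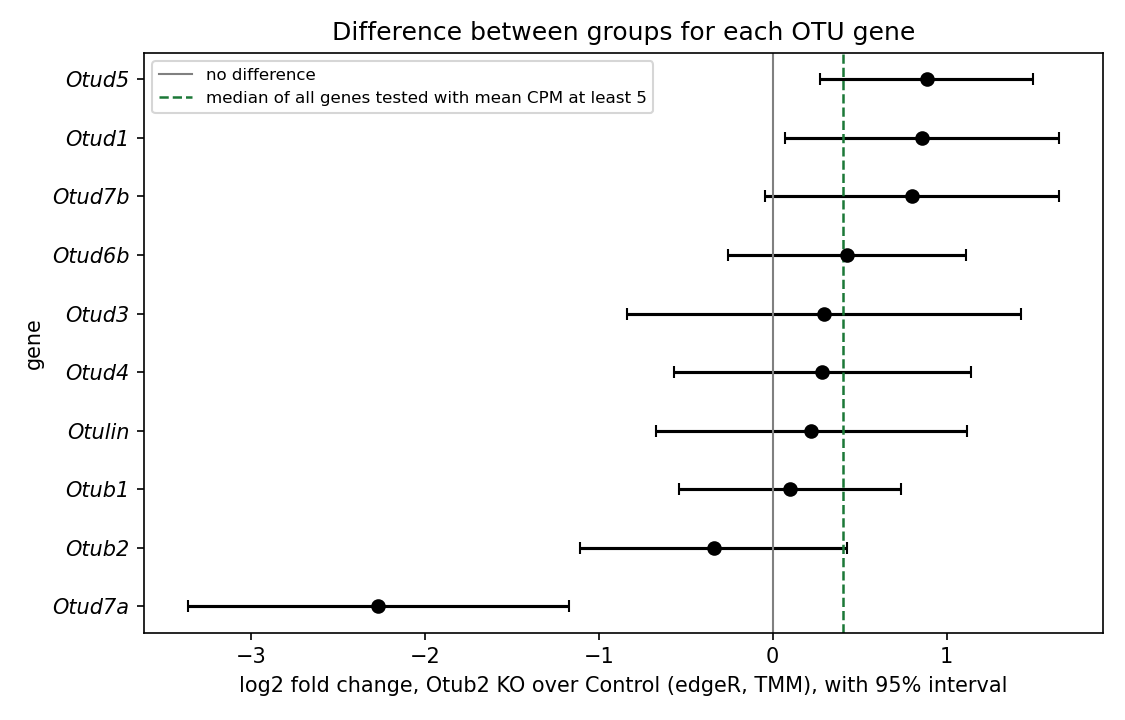
Log2 fold change of each gene, Otub2 KO over Control (edgeR, TMM), with its 95% interval; the grey line marks no difference and the dashed line the median of genes with at least 5 CPM. The interval of Otud7a (-3.36 to -1.17) lies wholly below 0, and those of Otud5 (0.27 to 1.50) and Otud1 (0.07 to 1.64) wholly above 0. The intervals of Otud5 and Otud1 both include the dashed line (0.41).

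Otud7a was the member that differed most. It encodes an OTU enzyme best known from neurons. Otud7a (ENSMUSG00000033510, chr7:63444751-63759028, plus strand, 15 merged exons) had 31 and 50 counts in Otub2 KO 3 and 4, against 153 and 156 counts in Control 1 and 2, although the knockout libraries were the deeper. In CPM these were 2.16 and 2.42 in Otub2 KO 3 and 4 and 10.7 and 11.4 in the controls. The groups were far apart, and the libraries within each group were close. The log2 fold change was -2.27 (SE 0.431, 95% interval -3.36 to -1.17, edgeR adjusted p = 0.166). A lower one was found for 3.63% of all genes tested and for 0.305% of those with a mean of at least 5 CPM. Otud7a reached that mean only through its controls. DESeq2 called it (log2 fold change -2.01, adjusted p = 0.00959), where 0.844% of genes with an adjusted p were called lower. With library size only edgeR also called it (-2.69, adjusted p = 0.0492), and 6.54% of genes were called lower. Over all settings its log2 fold change ran from -2.74 to -2.01, and its adjusted p from 2.25e-08 to 0.832. Other annotated genes within its span (Gm22228, Gm3307 and Gm5898) share 0 bases with its exons.

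Otud7b, also known as Cezanne, is the closest relative of Otud7a, cleaves ubiquitin chains during mitosis and stabilises TRAF3. It had 52.0 and 87.4 CPM in Otub2 KO 3 and 4 and 39.7 and 40.4 CPM in Control 1 and 2. Both knockout libraries were above the controls, and Otub2 KO 4 was much the higher. Its log2 fold change was 0.80 (SE 0.332, 95% interval -0.04 to 1.65, edgeR adjusted p = 0.213). Without Otub2 KO 3 it was 1.15 (adjusted p = 0.00011), and without Otub2 KO 4 it was 0.37 (adjusted p = 0.288). Otud7b lies at chr3:96104527-96161129, plus strand (ENSMUSG00000038495).

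On the TMM scale Otud5 and Otud1 lay above both controls in both knockout libraries, by about the same amount in each. Otud5, an X-linked enzyme that trims chains from TRAF3 and restrains interferon induction, had 66.1 and 70.3 CPM in Otub2 KO 3 and 4, against 36.7 and 37.1 CPM in Control 1 and 2. The groups did not overlap, and each pair of libraries was close. Its log2 fold change was 0.89 (SE 0.240, edgeR adjusted p = 0.166; ENSMUSG00000031154, chrX:7841364-7876626, plus strand). Otud1, a single-exon gene whose protein removes chains from signalling proteins, had 25.2 and 24.1 CPM in the same knockout libraries and 13.1 and 14.1 CPM in the controls. Again the groups did not overlap. The log2 fold change of Otud1 was 0.86 (SE 0.309, edgeR adjusted p = 0.189; ENSMUSG00000043415, chr2:19657752-19660583, plus strand). Both genes kept a positive fold change under every scaling tried, from 0.41 for Otud5 and 0.38 for Otud1 upward, but with library size only neither pair of knockout libraries lay wholly above the controls.

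Setting each knockout library alone against the controls brought calls for these members, with the spread of the single library taken to equal that of the controls. Without Otub2 KO 3, edgeR called 4 of the 10, with Otud1, Otud5 and Otud7b higher and Otud7a lower, when 18.8% of all genes tested were called higher and 22% lower. Without Otub2 KO 4 it called 3, with Otud1 and Otud5 higher and Otud7a lower, when 22.4% were called higher and 12.7% lower. The adjusted p was 0.0117 and 0.00806 for Otud1, 0.00181 and 0.00765 for Otud5, and 6.37e-08 and 2.25e-08 for Otud7a in these 2 fits, in that order. Both fits share the same controls. Otub2 passed in neither, with log2 fold changes of -0.16 (adjusted p = 0.672) and -0.52 (adjusted p = 0.154).

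Otub1, the family's most abundant member per length and a protein that also binds E2 conjugating enzymes and blocks them without cleaving anything, had overlapping groups on the TMM scale. It had 63.5 and 72.1 CPM in Otub2 KO 3 and 4 and 68.6 and 58.0 CPM in Control 1 and 2 (log2 fold change 0.10, 95% interval -0.54 to 0.74, edgeR adjusted p = 0.811). With median or upper-quartile scaling it lay below both controls in both knockout libraries (log2 fold change -0.38 and -0.37), so its direction depended on the scaling. It lies at chr19:7198202-7206316, minus strand (ENSMUSG00000024767). The ratio of Otub2 to Otub1 within a library needs no size factor. Per length it was 0.206 and 0.229 in Otub2 KO 3 and 4, against 0.276 and 0.319 in Control 1 and 2, lower in both knockout libraries. On the log2 scale the mean difference was -0.45 (two-sided exact permutation p = 0.333, the smallest that 2 against 2 libraries can give), and the counting SE of a library's log2 ratio was at most 0.0997.

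Otulin, which cleaves linear ubiquitin chains and so opposes the linear ubiquitin ligase, had 22.9 and 26.9 CPM in Otub2 KO 3 and 4 and 25.8 and 16.9 CPM in Control 1 and 2. The controls differed more from each other than the knockout libraries did, and the groups overlapped (log2 fold change 0.22, 95% interval -0.67 to 1.11, edgeR adjusted p = 0.697). It lies at chr15:27542635-27630693 on the minus strand (ENSMUSG00000046034). Ank, on the other strand, overlaps its span but shares 0 bases with its exons. Without Control 2 its log2 fold change was -0.02.

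Otud6b, linked to protein synthesis and proteasome assembly, had 77.4 and 64.1 CPM in Otub2 KO 3 and 4, against 46.4 and 58.7 CPM in Control 1 and 2. The groups were separate on the TMM scale but by little (log2 fold change 0.43, 95% interval -0.26 to 1.11, edgeR adjusted p = 0.344), and the fold change was 0.48 with RLE size factors but below 0 (-0.05 to -0.04) under upper-quartile, library size only and median scaling. Otud6b is at chr4:14809498-14826587 on the minus strand (ENSMUSG00000040550). Otud4, a scaffold for DNA alkylation repair enzymes, had 84.6 and 129 CPM in Otub2 KO 3 and 4 and 73.5 and 102 CPM in Control 1 and 2. Its groups overlapped, since Otub2 KO 3 lay below Control 2 (log2 fold change 0.29, 95% interval -0.57 to 1.14, edgeR adjusted p = 0.595; ENSMUSG00000036990, chr8:79639618-79677724, plus strand). Otud3 was among the less abundant members at 11.9 and 7.69 CPM in Otub2 KO 3 and 4, against 7.07 and 8.86 CPM in Control 1 and 2. Its knockout libraries lay on either side of Control 2 (log2 fold change 0.30, 95% interval -0.84 to 1.43, edgeR adjusted p = 0.680; ENSMUSG00000041161, chr4:138895379-138913945, minus strand). For Otud3, Otud4 and Otulin the sign of the fold change also turned with those 3 scalings, and with RLE it did not.

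**Figure D3:**
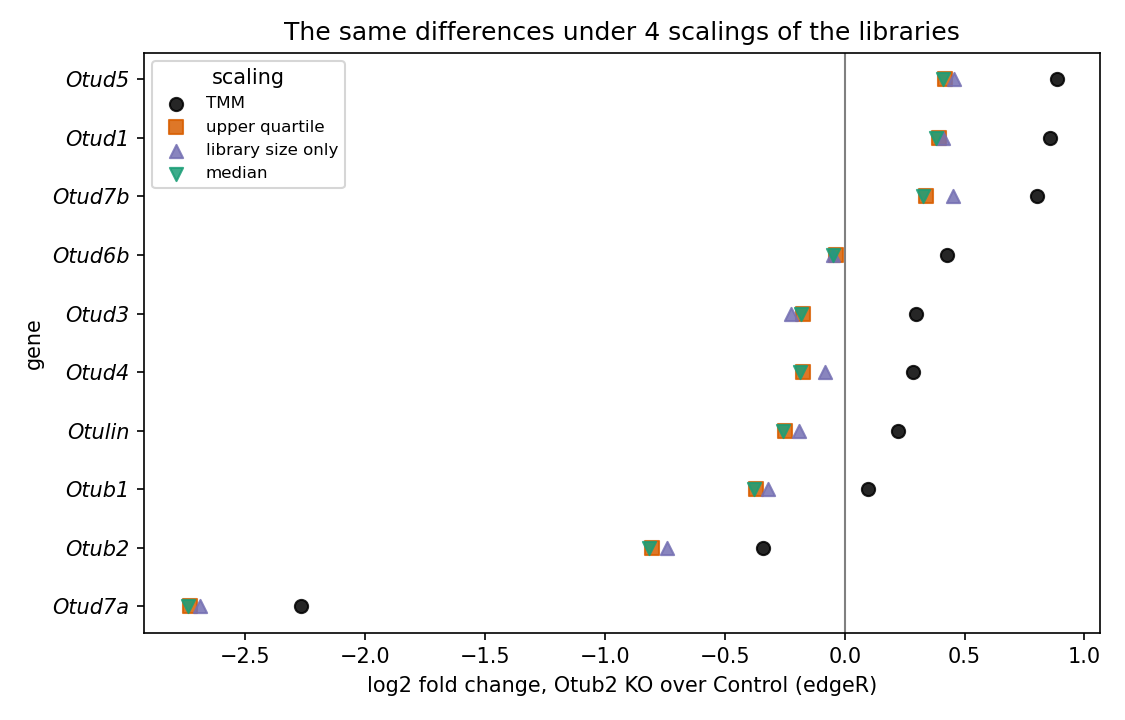
Log2 fold change of each gene, Otub2 KO over Control (edgeR), under TMM (circles), upper-quartile (squares), library size only (upward triangles) and median scaling (downward triangles). The order of the genes stays much the same while all points move together, and only Otud5, Otud1 and Otud7b stay above 0 and Otub2 and Otud7a below 0 in all 4.

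FPKM, here a level per kilobase of a gene's merged exons, gives the make-up of the family within each library. Merged exons pool all annotated transcripts of a gene, so the shares and ranks of the members depend on that choice of length. Otub1 was the most abundant of the 10 in every library, with 22.3% and 23.1% of their summed FPKM in Otub2 KO 3 and 4 and 28.2% and 24.0% in Control 1 and 2. Otud7a was the least abundant in every library, with 0.534% and 0.546% in Otub2 KO 3 and 4, against 3.09% and 3.32% in Control 1 and 2. Otub2 made up 4.59% and 5.29% in Otub2 KO 3 and 4, ranking 9 and 8 of the 10, against 7.78% and 7.66% in the controls, where it ranked 5 in both. Shares of Otud5 were 11.4% and 11.0% in Otub2 KO 3 and 4 and 7.39% and 7.52% in the controls, and those of Otud1 were 7.95% and 6.96%, against 4.83% and 5.25%. Set against the sum of the other 9 within a library, Otud1, Otud5 and Otud7b lay higher in both knockout libraries, Otub1, Otub2 and Otud7a lower, and the other 4 overlapped. For each member named here as higher or lower the two-sided exact permutation p was 0.333, the smallest that 2 against 2 libraries can give. Such shares are tied, since a larger share of some members makes those of the rest smaller, and Otub1 overlapped the controls on the TMM scale. No like measure was taken over all genes.

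In the controls the order per length was Otub1 at 30.7 and 26.2 FPKM, then Otud6b (15.6 and 19.9), Otulin (17.4 and 11.5) and Otud4 (10.3 and 14.5 FPKM). Otulin overlapped both Otud6b and Otud4, and Otud6b lay above Otud4. Next came Otub2 at 8.48 and 8.36 FPKM and Otud5 at 8.05 and 8.21 FPKM, which were close but did not overlap. Otud1 (5.27 and 5.74 FPKM) lay just above Otud7b (4.93 and 5.05 FPKM), Otud3 (4.83 and 6.10 FPKM) overlapped both, and Otud7a was lowest at 3.37 and 3.63 FPKM. In Otub2 KO 3 and 4 the same scale gave Otub2 3.20 and 7.02 FPKM, and the 10 summed to 69.6 and 133 FPKM, against 109 and 109 in Control 1 and 2. The sum was lowest in Otub2 KO 3, where the 12 gland markers took 26.7% of gene counts. FPKM divides by all counts of a library, so the values and sums set side by side here for different libraries do not share a common scale. The part of the gland transcripts in the low sum was not tested.

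**Figure D4:**
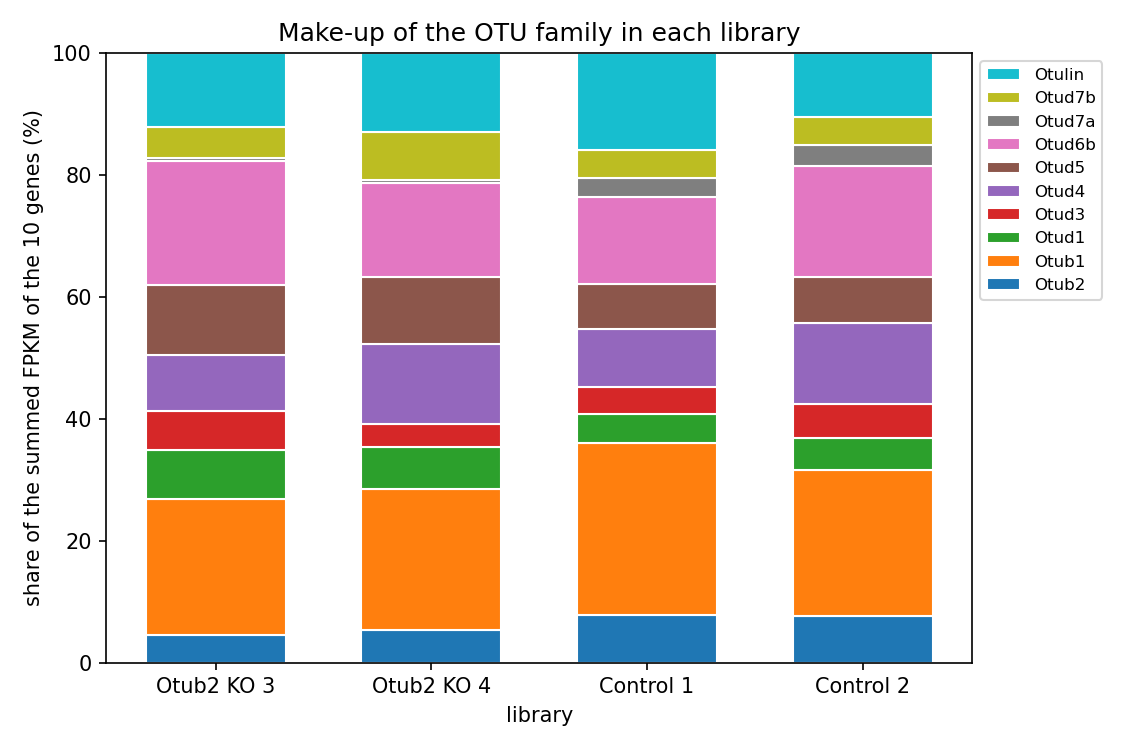
Share of each gene in the summed FPKM of the 10 genes (%), stacked for Otub2 KO 3, Otub2 KO 4, Control 1 and Control 2. The Otud7a band is thin in both knockout libraries (0.534% and 0.546%) and wider in the controls (3.09% and 3.32%).

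The remaining OTU genes lay closer to the controls than Otud7a did. Over all 21916 genes tested, 26.9% had both knockout libraries above both controls and 33.1% had both below, and among those with at least 5 CPM the shares were 42.7% and 12%. These shares are on the TMM scale. The second pair is the closer background for the lists that follow. At least 5 CPM was reached by 6 of the 7 remaining OTU genes, 8 of the 8 linear ubiquitin genes and 8 of the 10 E2 genes. So it was by 17 of the 19 other deubiquitinases and 16 of the 17 partners. For genes with at least 5 CPM, the shares above and below were 13.1% and 21% with library size only. They were 15.7% and 31.4% with median scaling and 16.1% and 30.8% with upper-quartile scaling. Of 7 (Yod1, Zranb1, Vcpip1, Tnfaip3, Otulinl, Otud6a and Alg13), 2 lay above both controls in both knockout libraries on the TMM scale (Alg13 and Vcpip1), 0 below, and none passed the edgeR test. Tnfaip3, or A20, an NF-kB inhibitor with both cleaving and ligating activity, had 11.3 and 32.7 CPM in Otub2 KO 3 and 4, against 12.6 and 13.5 CPM in Control 1 and 2, so the knockout libraries lay on opposite sides of the controls. Alg13 had 13.1 and 15.5 CPM in the knockout libraries, against 10.0 and 9.45 CPM in Control 1 and 2 (log2 fold change 0.56, edgeR adjusted p = 0.357). Zranb1 and Otulinl had log2 fold changes of -0.10 and -0.24. Under upper-quartile, library size only and median scaling no gene of this list lay above both controls, and 3, 1 and 3 lay below.

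Linear ubiquitin chains are made by a ligase of Rnf31, Rbck1 and Sharpin, read by Ikbkg and trimmed by Cyld and Otulin. On the TMM scale Rnf31, Sharpin, Cyld, Ikbkg and Tnip1, 5 of the 8 in that list, had both knockout libraries above both controls and 0 had both below. Among all genes with at least 5 CPM, 42.7% lay above and 12% below. With median or upper-quartile scaling 4 lay above and 3 below (Rbck1, Spata2 and Ripk1), and with library size only 2 lay above. The list's median log2 fold change was 0.68, against 0.09 over all genes tested and 0.41 over those with at least 5 CPM. Cyld, a deubiquitinase of another family, had 57.5 and 36.7 CPM in Otub2 KO 3 and 4 and 18.1 and 20.7 CPM in Control 1 and 2 (log2 fold change 1.28, SE 0.338, edgeR adjusted p = 0.166). Ikbkg, the ubiquitin-binding subunit of the IKK complex, had 45.9 and 48.8 CPM, against 22.2 and 24.8 CPM (1.01, SE 0.264, edgeR adjusted p = 0.166). Rnf31 and Cyld lay above both controls under all 4 scalings. DESeq2 called both of them higher, where 8% of genes were called higher and 0.844% lower. With DESeq2 the median log2 fold change of genes with at least 5 CPM was 0.66. Ripk1, a kinase modified by such chains, had a log2 fold change of -0.08. None of the 8 passed the edgeR test.

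Genes that encode ubiquitin lay on both sides of the controls. Ubb, a polyubiquitin gene, had 513 and 529 CPM in Otub2 KO 3 and 4, against 346 and 342 CPM in Control 1 and 2 (log2 fold change 0.60, edgeR adjusted p = 0.237). Rps27a, which encodes ubiquitin fused to a ribosomal protein, had 252 and 441 CPM in the knockout libraries and 718 and 634 CPM in the controls (-0.96, edgeR adjusted p = 0.204), with Otub2 KO 3 the lowest library. Both genes kept their signs under all 4 scalings, but with library size only Ubb overlapped the controls. Such genes have near-identical copies and repeats, and how the authors counted reads that map to several places is not given in the sources used here.

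Among 10 genes listed with the E2 families that Otub1 is known to bind, 3 lay above both controls on the TMM scale (Ube2v1, Ube2d1 and Ube2e1) and 2 below (Ube2d2b and Ube2e3). Among all genes with at least 5 CPM, 42.7% lay above and 12% below on that scale. Ube2v1 rests on 17 and 27 counts in Otub2 KO 3 and 4, against 12 and 14 counts in Control 1 and 2. Ube2d2b had 0.419 and 0.145 CPM in Otub2 KO 3 and 4 and 1.26 and 1.03 CPM in Control 1 and 2 (log2 fold change -2.07, edgeR adjusted p = 0.168), which rests on 6 and 3 counts, against 18 and 14. Its near-identical copy Ube2d2a had a log2 fold change of -0.21. Ube2d1 and Ube2e1 had log2 fold changes of 0.46 and 0.31, and no gene of this list lay above both controls under the other 3 scalings, while 2 lay below with library size only, 6 with median scaling and 5 with upper-quartile scaling. Of 19 deubiquitinases of the UCH, Josephin, JAMM, MINDY and ZUP1 families, 6 lay above both controls and 2 below (Uchl3 and Atxn3) on the TMM scale. Under each of the other 3 scalings 1 lay above both controls, while 5 lay below using library size only, 10 using median scaling and 9 using upper-quartile scaling. Of all genes with at least 5 CPM, 21%, 31.4% and 30.8% lay below under these scalings, in that order, and 13.1%, 15.7% and 16.1% above. Uchl3, a ubiquitin hydrolase, had 47.3 and 59.2 CPM in Otub2 KO 3 and 4, against 82.9 and 90.9 CPM in Control 1 and 2 (log2 fold change -0.71, edgeR adjusted p = 0.190). Brcc3, which cleaves chains at DNA breaks, and Josd2 had log2 fold changes of 0.87 and 0.71, and Atxn3 of -0.19. No gene of either list passed in edgeR.

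Of 17 proteins reported to partner or serve as substrates of these enzymes, 10 had genes above both controls on the TMM scale and 1 had its gene below (Gata3). Among all genes with a mean of at least 5 CPM, 42.7% lay above and 12% below. The median log2 fold change of the 17 was 0.33, against 0.41 over those genes. With library size only 1 lay above and 2 below, against 13.1% and 21% of those genes. With median or upper-quartile scaling 2 lay above and 6 below, against 15.7% and 31.4% with median and 16.1% and 30.8% with upper-quartile scaling. Wwtr1, which encodes TAZ, had 61.1 and 96.5 CPM in Otub2 KO 3 and 4 and 34.6 and 40.6 CPM in Control 1 and 2 (log2 fold change 1.07, SE 0.322, edgeR adjusted p = 0.170), and lay above both controls under 3 of the 4 scalings. Yap1, named after its values were seen, had 146 and 158 CPM, against 146 and 135 CPM (0.11, edgeR adjusted p = 0.778), and its sign turned under the other 3 scalings. Irf3, an interferon regulatory factor, had 61.8 and 62.5 CPM in the knockout libraries and 39.1 and 37.6 CPM in the controls (0.69, edgeR adjusted p = 0.183). Gata3 and Map3k14 had log2 fold changes of -0.65 and -0.31. None of the 17 passed the edgeR test.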

How the data were processed

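RNA was sequenced from 4 libraries, 2 per group. The deposited table holds raw read counts per gene, which are whole numbers, and FPKM values made by the authors from those counts, both per the file headers. HISAT2, DESeq and GRCh38 are listed in the submitters' processing notes. GRCh38 is human, but the IDs are from mouse Ensembl. Of 54446, 54409 were found in GENCODE mouse release M21 (GRCm38), which gave coordinates. The sources used here give neither a counting tool nor a strand setting. The 14785 features without an Ensembl ID took 1.29% and 0.914% of counts in Otub2 KO 3 and 4 and 2.84% and 2.82% in Control 1 and 2, and were excluded before library sizes were computed. Column headers (OE) were matched to titles (KO) by number.

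The main test was edgeR's quasi-likelihood test (version 4.0.16, R 4.3.3, TMM, filterByExpr, Benjamini-Hochberg at 0.05 over 21916 genes), checked on simulated data. SEs come from the F statistic. DESeq2 1.42.0, limma 3.58.1 (voom), other scalings, filters and left-out libraries were alternatives. The members, lists and tests were chosen with earlier results of these data known. All 10 members were named; of each other list, the 2 genes with the smallest p per direction, and the 3 genes most like Otub2. Some list members that the rule named are not reported here.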

Additional observations from a re-analysis of the deposited data

How the results depend on the processing

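Otub2 kept a log2 fold change below 0, from -0.82 to -0.08, and passed no test in its 13 alternatives, and the within-library log2 ratio of Otub2 to Otub1 also stayed below 0. The number of genes called moved from 0 to 1288 with DESeq2, 1470 with library size only and 9 without a filter on low counts, and ran from 0 to 9456 when a library was left out. The members called moved from 0 to 1 with DESeq2 and 1 with library size only (Otud7a in both), and ran from 0 to 4 when a library was left out. A single library left in a group was taken to vary like the pair it was set against. Signs turned with upper-quartile scaling for Otub1 (-0.37), Otud3 (-0.17), Otud4 (-0.17), Otud6b (-0.038) and Otulin (-0.25), with library size only for Otub1 (-0.32), Otud3 (-0.23), Otud4 (-0.081), Otud6b (-0.048) and Otulin (-0.19), and with median scaling, chosen after seeing the data, for Otub1 (-0.38), Otud3 (-0.18), Otud4 (-0.18), Otud6b (-0.049) and Otulin (-0.26). These scalings move all genes together. When a library was left out, log2 fold changes ran from -0.00022 to 0.23 for Otub1 (below 0 without Otub2 KO 4), from -0.023 to 0.57 for Otud3 (below 0 without Otub2 KO 3), from -0.059 to 0.59 for Otud4 (below 0 without Otub2 KO 4) and from -0.021 to 0.57 for Otulin (below 0 without Control 2). The cause of these other changes was not tested. No paired analysis was possible because the groups share no replicate number. Depth limits Otud7a most, at 31 counts in its lowest library.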
